A study of Homo sapiens with 6 samples.

Results

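The 9 genes described here encode subunits of Polycomb repressive complex 1 (PRC1): RING1, RNF2, BMI1, PCGF2, CBX2, CBX6, CBX7, CBX8 and BCOR. They were chosen by gene symbol, as canonical and variant subunits, from the 18086 symbols that appear in the 4 peak lists, and all 9 were found there. HL-60 is a human promyelocytic leukaemia cell line, labelled as myeloblasts. Histone marks were mapped by ChIP-seq, the sequencing of DNA immunoprecipitated with an antibody, for trimethylated lysine 4 (H3K4me3) and lysine 27 (H3K27me3) of histone H3 in parental HL-60 cells and in JMJD3 KO (knockout) HL-60 cells, with 1 library per genotype and mark. JMJD3, the product of KDM6B, is a demethylase of lysine 27. No treatment or time is given in the labels, nor whether the knockout cells are 1 clone or a pool. The titles of the H3K27me3 libraries name that mark while their antibody label names H3K4me3, and the title was followed.

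PRC1 places ubiquitin on histone H2A. Its core pairs a RING protein, RING1 or RNF2, which carries the ligase activity, with a PCGF protein such as BMI1 or PCGF2. Canonical complexes add a CBX protein, whose chromodomain binds H3K27me3 and so recruits the complex to chromatin marked by Polycomb repressive complex 2 (PRC2), whereas variant complexes lack CBX proteins and use other partners such as the corepressor BCOR. H3K4me3 gathers at active or poised promoters, and H3K27me3 at promoters repressed by Polycomb. BMI1 is known for its role in the self-renewal of blood stem cells and leukaemic cells.

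The lists give peak positions and widths and neither read counts nor heights, so the sequencing depth is unknown. No test exists with 1 library in each group, and no difference below has a replicate check. Over all peaks the H3K4me3 list was shorter in knockout cells (24943 against 33470 peaks) and its peaks were narrower, with a median of 260 bp against 359 bp. Values of single genes are therefore set beside those of all genes. Of the 10 granulocyte lineage markers looked up, all had an H3K4me3 peak within 20 kb of a transcription start site (TSS) in parental cells and 9 in knockout cells. Of 8 lymphoid markers 5 and 4 did, of 8 erythroid and megakaryocyte markers 2 and 2, and of 8 epithelial and fibroblast markers 2 and 1.

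The promoters of 4 members are shown because the peaks described below lie at or beside them: RING1 and RNF2, the paralogous ligases, CBX7, the only member with H3K27me3, and CBX6, its neighbour on chromosome 22. Each runs 5′ to 3′ from 250 bases before the start to 50 bases after it, is taken from RefSeq on GRCh38.p14, and has its CpG dinucleotides in capitals.
RING1 (chr6:33208250-33208549, plus strand): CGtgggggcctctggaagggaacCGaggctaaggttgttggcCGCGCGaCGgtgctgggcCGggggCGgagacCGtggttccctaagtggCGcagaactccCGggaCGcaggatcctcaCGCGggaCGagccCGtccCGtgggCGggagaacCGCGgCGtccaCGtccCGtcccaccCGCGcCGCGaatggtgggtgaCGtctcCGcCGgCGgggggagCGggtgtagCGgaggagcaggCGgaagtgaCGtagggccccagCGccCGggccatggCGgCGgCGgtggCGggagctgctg
RNF2 (chr1:185045308-185045607, plus strand): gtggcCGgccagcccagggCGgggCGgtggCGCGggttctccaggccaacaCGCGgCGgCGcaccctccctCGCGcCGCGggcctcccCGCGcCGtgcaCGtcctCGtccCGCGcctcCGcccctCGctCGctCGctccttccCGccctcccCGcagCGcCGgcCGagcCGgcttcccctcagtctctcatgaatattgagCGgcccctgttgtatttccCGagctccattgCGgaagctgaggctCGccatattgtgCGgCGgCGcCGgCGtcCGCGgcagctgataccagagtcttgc
CBX7 (chr22:39152631-39152930, minus strand): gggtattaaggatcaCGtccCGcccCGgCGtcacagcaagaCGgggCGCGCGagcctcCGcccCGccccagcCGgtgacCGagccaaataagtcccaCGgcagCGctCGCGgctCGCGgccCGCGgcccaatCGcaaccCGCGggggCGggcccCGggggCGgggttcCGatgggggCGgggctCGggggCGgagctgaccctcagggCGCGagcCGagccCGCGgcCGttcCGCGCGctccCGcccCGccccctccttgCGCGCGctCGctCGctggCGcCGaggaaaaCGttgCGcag
CBX6 (chr22:38872167-38872466, minus strand): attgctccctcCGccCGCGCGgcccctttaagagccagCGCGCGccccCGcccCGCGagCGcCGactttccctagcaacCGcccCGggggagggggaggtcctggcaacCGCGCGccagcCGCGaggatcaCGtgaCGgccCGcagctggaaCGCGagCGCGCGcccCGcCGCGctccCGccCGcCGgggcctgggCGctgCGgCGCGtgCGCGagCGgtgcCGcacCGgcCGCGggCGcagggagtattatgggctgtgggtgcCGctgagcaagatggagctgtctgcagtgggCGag
All 4 were dense in CpG, the dinucleotide that clusters in CpG islands. RING1 and RNF2 each held 41 CpGs in 300 bases, CBX6 held 47 and CBX7 held 50, where the median of 35116 promoters of the same length was 14. The peak lists are on hg19, another build. The CBX6 and CBX7 starts stood 280199 bp apart in the lists and 280464 bp apart in the promoter table.

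In all, 7 of the 9 members had an entry among these promoters, with 9 starts between them. Their CpG counts ran from 2 at PCGF2 to 65 at the second BMI1 start, and the median was 41. PCGF2 (2) and the first BCOR start (7) were the CpG-poor entries, below the median promoter, while the second BCOR start held 29 and the first BMI1 start 36. The BCOR starts of the table were 30644 bp apart and those of the lists 79863 bp, so the BCOR entries were not matched to the listed starts. The first BCOR entry here has the higher coordinate, whereas the listed BCOR starts below are taken from the lower one. BMI1 likewise has more entries here than starts in the lists, and these were not matched. The palindrome CACGTG, an E-box bound by MYC and by the MGA and MAX proteins of a variant PRC1, lay in 3 of the 9 entries against 7.26% of all promoters. These were the first BMI1 start, CBX6 and the first BCOR start, where the motif began at positions -70, -121 and -132 relative to the start. The motif GGCGGGAA was searched on both strands as a site of the E2F family, to which the PRC1 partner E2F6 belongs. It lay in the RNF2 entry, on the strand opposite to the one printed, and in 3.16% of all promoters on either strand. These matches describe the letters and do not show binding. The motif CACGTG itself holds a CpG, and the entries had a median of 41 CpGs against 14 for all promoters. The 7.26% is therefore not a background of like CpG content.

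H3K4me3 was listed for all 9 genes in parental cells and for 8 in knockout cells, and at none of the 9 was the summed width greater in the latter. Of all 18086 symbols 15382 and 13665 were listed. The summed width was smaller in knockout cells at 12908 of the 13433 genes listed in both, so this direction is that of nearly all genes. Peaks count here when their centre lies within 20 kb of a TSS of the gene, which is the limit of the lists, and the width of a gene is the sum over its distinct peaks. The members held 44 distinct parental peaks covering 24987 bp and 24 knockout peaks covering 9085 bp, with peaks shared by CBX2 and CBX8 counted once. Of the 9 genes, 7 were at least 2-fold narrower or unlisted in knockout cells. Over all genes listed in either genotype 57.4% were, so a majority of members is also what the background gives. The 8 members listed in both genotypes had a median log2 width ratio, knockout over parental, of -1.55, from -1.96 at CBX2 to -0.62 at RING1, beside -1.03 for the 13433 such genes. CBX2 and CBX8 share peaks and do not count as independent genes.

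**Figure D1:**
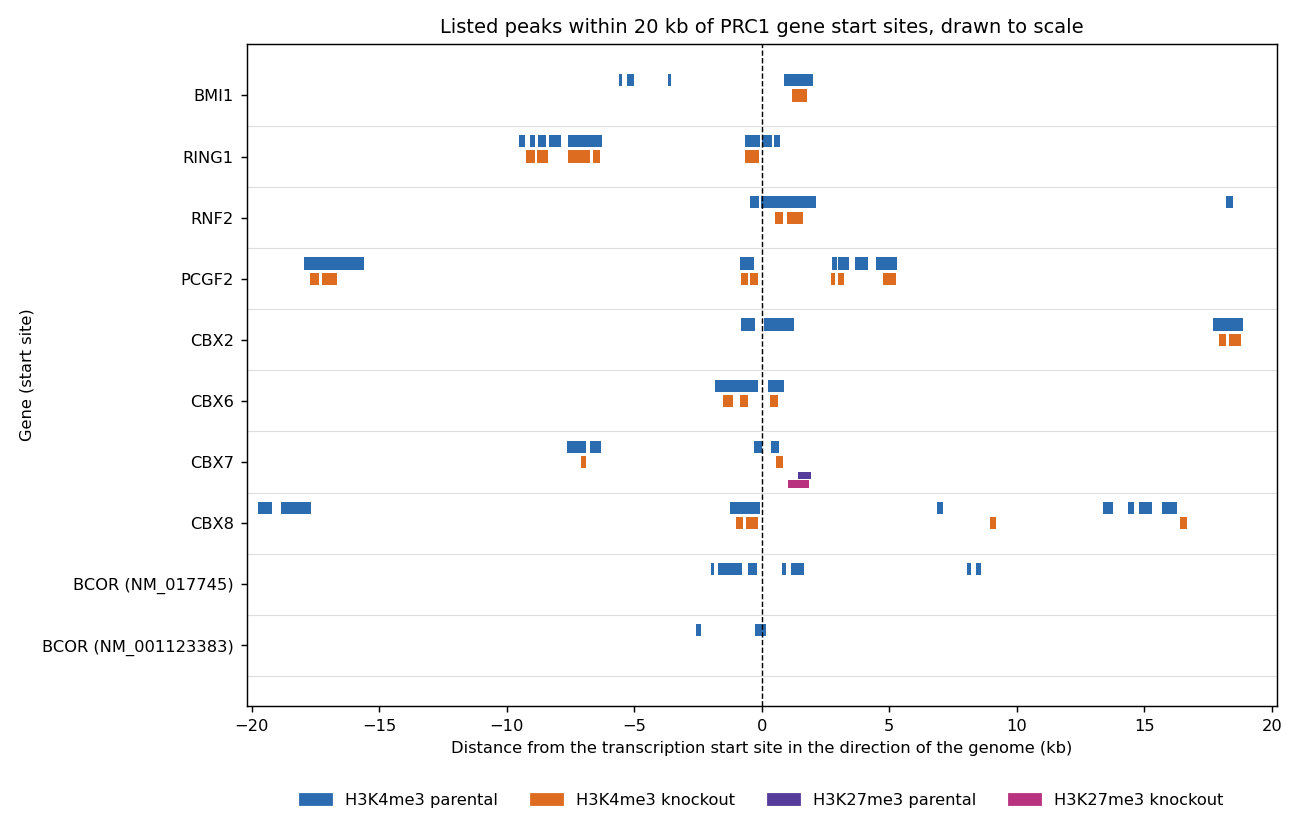
Each bar is a listed peak drawn to scale against its distance from the TSS in kb, with 1 row per gene and a row for each of the 2 BCOR start sites. H3K4me3 parental peaks are blue and knockout peaks orange; the H3K27me3 peaks of both genotypes stand beside CBX7 alone, and the BCOR rows hold parental peaks only.

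Knockout peaks mostly lay inside parental regions. Of the 24 knockout peaks 22 overlapped a parental peak by at least 1 bp, and of the 44 parental peaks 16 (36.4%, Wilson 95% interval 23.8 to 51.1, counting error only) overlapped a knockout peak. The 16 overlapped parental peaks had a median width of 695 bp and the other parental peaks one of 336.5 bp. Overlap was not counted over all peaks, so neither these shares nor these widths are shown to be particular to the members. The knockout share of the members' peaks from both lists was 35.3% (25 to 47.2, counting error only), beside 42.7% of all peaks. The interval takes peaks as independent, which peaks side by side are not. With peaks closer than 500 bp joined, 23 parental and 16 knockout regions remained. The difference from all peaks was not tested. Counting only parental peaks covered to at least 50%, the overlapped share of parental peaks was 22.7% in place of 36.4%.

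**Figure D2:**
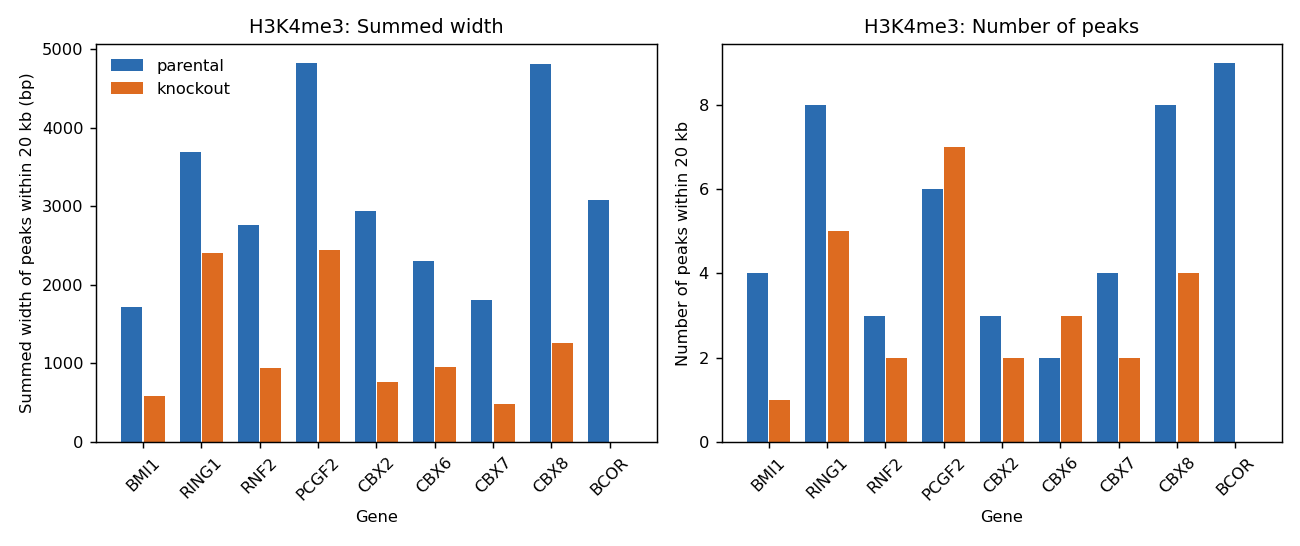
Bars give the summed width in bp (left) and the number (right) of H3K4me3 peaks within 20 kb of each gene's TSS, blue for parental and orange for knockout cells, with 1 library each. Width is lower in knockout cells at every gene, while PCGF2 and CBX6 have more peaks there and BCOR has none.

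Of the ligase genes, RING1 had the higher ratio within 20 kb and RNF2 the higher one within 1 kb of the start. RING1 (NM_002931, TSS at 33176285 on chromosome 6, hg19) had 8 parental peaks of 3687 bp and 5 knockout peaks of 2405 bp, a log2 ratio of -0.62. Within 20 kb this was the smallest difference among the members with peaks in both genotypes, and 77.2% of all genes listed in both had a lower ratio. RNF2 (NM_007212, TSS at 185014550 on chromosome 1) had 3 parental peaks of 2761 bp and 2 knockout peaks of 946 bp, a ratio of -1.55, and 23.3% of all genes had a lower one.

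At the RING1 start itself the knockout list held the peak before the TSS and not those after it. In parental cells 3 peaks lay within 1 kb: 1 of 585 bp that ended 56 bp before the TSS, 1 of 397 bp that began 23 bp after it and 1 of 230 bp centred 589 bp after it. In knockout cells only the first had a counterpart, of 536 bp, from 33175631 to 33176166. Within 5 kb and within 1 kb RING1 thus had 1212 and 536 bp, a ratio of -1.18 that passes 2-fold. Its distance to the start of the microRNA gene MIR219A1 was 287 bp and to RING1 387 bp, so by nearest gene RING1 had no knockout peak, against 627 bp in parental cells. The other RING1 peaks lay between 6 and 10 kb before the TSS and were nearest to RXRB, a nuclear receptor gene. There 5 parental peaks stood against 4 knockout peaks, and the widest measured 1343 and 829 bp. RING1 shares all its listed peaks with HSD17B8, RXRB, SLC39A7, COL11A2 and MIR219A1, whose ratios lay between -0.66 and -0.62.

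At RNF2 the parental list held H3K4me3 over the start and the knockout list held it only downstream. The widest parental peak, 2141 bp from 185014531 to 185016671, spanned the TSS, and a second of 346 bp ended 105 bp before it. The knockout peaks, of 318 and 628 bp, began 522 and 986 bp after the TSS, and both lay wholly inside the wide parental peak. Within 1 kb the widths were near to each other (346 and 318 bp, ratio -0.12), but the parental value there leaves out the wide peak, whose centre was 1050 bp away. No other gene shared these peaks.

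Of the PCGF genes, BMI1 had the lower ratio within 20 kb, and the order depended on the peaks counted: within 5 kb BMI1 stood at -1.14 and PCGF2 at -1.32, and with peaks of at least 300 bp at -0.97 and -1.39. BMI1 (NM_005180, TSS at 22610138 on chromosome 10) had 4 parental peaks of 1715 bp and 1 knockout peak of 587 bp, a ratio of -1.55. The knockout peak, from 22611323 to 22611909 and centred 1477 bp after the TSS, lay wholly inside the parental peak of 1151 bp centred 1441 bp after it. The other 3 parental peaks, of 146, 272 and 146 bp, were nearest to COMMD3, the gene before BMI1, and to the read-through transcript COMMD3-BMI1, and none overlapped a knockout peak. Both these genes list the same 4 and 1 peaks as BMI1. A width of 146 bp is the smallest in the H3K4me3 lists, held by 4.36% of parental and 6.24% of knockout peaks. With these 3 peaks left to COMMD3, BMI1 had 1151 and 587 bp, just under 2-fold.

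PCGF2 (NM_007144, TSS at 36904558 on chromosome 17) was 1 of 2 members with more peaks in knockout than in parental cells, 7 against 6, while its summed width was smaller there, 2449 bp against 4824 bp. Its ratio of -0.98 stood just inside the 2-fold limit, with 53.4% of all genes lower, and CBX6 at -1.28 was the nearest member outside it. Of all genes listed in either genotype 20.6% had more peaks in knockout cells. Most of the PCGF2 width lay nearer to other genes: a peak of 2336 bp was nearest to CISD3 and 4 of the 6 parental peaks to PSMB3, a proteasome subunit gene. The peaks nearest to PCGF2 were 1 of 556 bp in parental cells and 2 of 270 and 322 bp in knockout cells, centred 571, 687 and 292 bp from the TSS. By these peaks PCGF2 was as wide in knockout as in parental cells, 592 against 556 bp, a ratio of 0.09 that has the opposite sign to the value within 20 kb. It was the only member whose sign turned, both by nearest gene and within 1 kb.

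**Figure D3:**
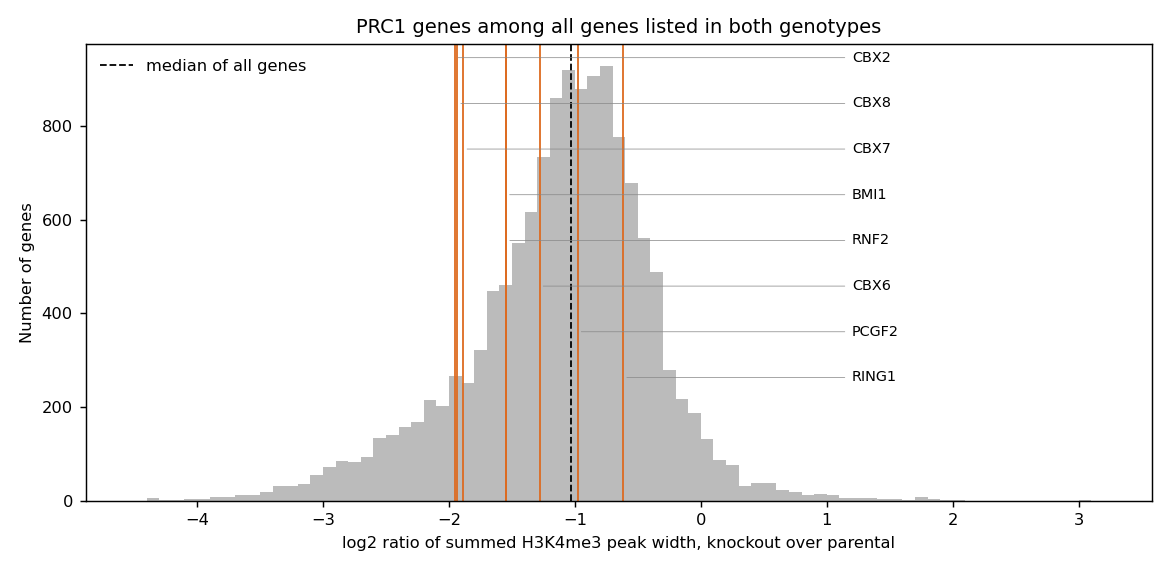
The grey histogram gives the log2 ratio of summed H3K4me3 width, knockout over parental, for the genes listed in both genotypes, the dashed line their median of -1.03 and the orange lines the 8 PRC1 genes with a ratio. RING1 and PCGF2 lie to the right of the median and the other 6 genes to its left.

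Among the CBX genes, which encode the chromodomain readers of H3K27me3, the widths in knockout cells were between 25.8% and 41.2% of those in parental cells. CBX2 and CBX8 lie side by side on chromosome 17 with starts 18939 bp apart, at 77751976 (NM_005189 and NM_032647) and 77770915 (NM_020649), so each gene's list holds peaks of the other. CBX2 had 3 parental peaks of 2936 bp and 2 knockout peaks of 757 bp (-1.96), and CBX8 had 8 of 4815 bp and 4 of 1260 bp (-1.93). Of all genes listed in both genotypes 12.8% and 13.1% had lower ratios.

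The remaining knockout peaks of CBX2 were those of CBX8. At its own start CBX2 had parental peaks of 579 bp, ending 248 bp before the TSS, and of 1192 bp, beginning 74 bp after it. Neither overlapped a knockout peak, and both knockout peaks listed for CBX2 were centred 18063 and 18542 bp away, beside the start of CBX8. There 1 parental peak of 1165 bp, from 77769671 to 77770835, stood over 2 knockout peaks of 280 and 477 bp, both wholly inside it. Within 1 kb CBX2 thus had 1771 bp and no knockout peak, and CBX8 had 1165 and 757 bp, a ratio of -0.62. Farther out, 5 parental peaks lay between 6 and 16 kb from the CBX8 start, at higher genome coordinates, and had no overlapping knockout peak. In the same direction, 2 knockout peaks of 231 and 272 bp had no parental one. The latter were the only knockout peaks of any member outside parental regions.

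CBX6 and CBX7, on chromosome 22, kept peaks near the start in both genotypes. CBX6 (NM_014292, TSS at 39268339) had parental peaks of 1665 and 642 bp on either side of its TSS and 3 knockout peaks of 385, 281 and 284 bp, all inside them. Its widths were 2307 and 950 bp (-1.28), and 34.5% of all genes were lower. CBX6 is the other member with more peaks in knockout cells: the wide parental peak stood over 2 knockout peaks. CBX7 (NM_175709, TSS at 39548538) had 4 parental peaks of 1802 bp and 2 knockout peaks of 488 bp (-1.88), and 13.9% of genes were lower. A parental peak of 327 bp spanned the CBX7 start and overlapped no knockout peak. A peak of 317 bp centred 535 bp from the TSS overlapped a knockout peak of 265 bp centred 681 bp away by 145 bp. Neither knockout peak of CBX7 was as wide as 300 bp, so with that minimum the gene was listed in parental cells only.

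BCOR was the member with H3K4me3 in parental cells only. The lists give it a pair of start sites on the X chromosome, at 39956719 (NM_001123385 and NM_017745) and at 40036582 (NM_001123383 and NM_001123384). Around the first lay 7 parental peaks from 146 to 948 bp wide, of which 5 were within 2 kb, and around the second 1 peak of 436 bp that spanned the TSS and 1 of 177 bp. Together they measured 3076 bp, which 22.1% of genes exceeded in parental cells. No knockout peak was listed within 400 kb of either start; the nearest, of 151 bp at ATP6AP2, was 404.364 kb from the second. In the same interval no other gene had a parental peak. Loss of all peaks was listed for 12.5% of genes listed in either genotype. Of the 1061 genes with at least 9 parental peaks, it was listed for 2 (0.189%), BCOR and the interferon-induced gene IFITM3. The limit of 9 was taken from BCOR itself, whose peaks are pooled over a pair of start sites. The 0.189% is therefore no measure of how rare its loss is.

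The X chromosome as a whole had fewer knockout peaks, and this moves with the BCOR value. It held 806 parental and 298 knockout H3K4me3 peaks, a ratio of 0.370, the lowest of the 23 chromosomes with peaks, against 0.745 for all peaks. Of 418 X-linked genes listed in either genotype, 171 (40.9%) were listed in parental cells only. Within 5 Mb of BCOR the peak ratio was 0.538, and 2 of 18 listed genes (11.1%) were listed in parental cells only. The part of the chromosome in the BCOR value was not tested. The other members' chromosomes had ratios between 0.698 (chromosome 17) and 0.796 (chromosome 1).

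Compared with genes within 5 Mb, apart from those sharing their peaks, only RING1 lay above the median of its neighbours. PCGF2 lay close to that median and the other members with a ratio lay below it. The median log2 ratio of the neighbours was between -1.11 and -0.88 for the 8 genes with a ratio, and -1.44 around BCOR. CBX2 and CBX8 stood at -1.96 and -1.93 where 169 neighbours had a median of -0.95, and 15 of these neighbours lay below each. CBX7 at -1.88 stood against -0.88, with 15 of 124 below it. RING1 at -0.62, a value that rests on its peaks nearest to RXRB, stood against -1.06, with 187 of 214 below it, and PCGF2 at -0.98 against -0.97. BMI1 at -1.55 had only 15 neighbours, with a median of -0.89 and 5 below it. RNF2 at -1.55 stood against -1.11 and CBX6 at -1.28 against -0.88, with 9 of 35 and 39 of 122 neighbours below.

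**Figure D4:**
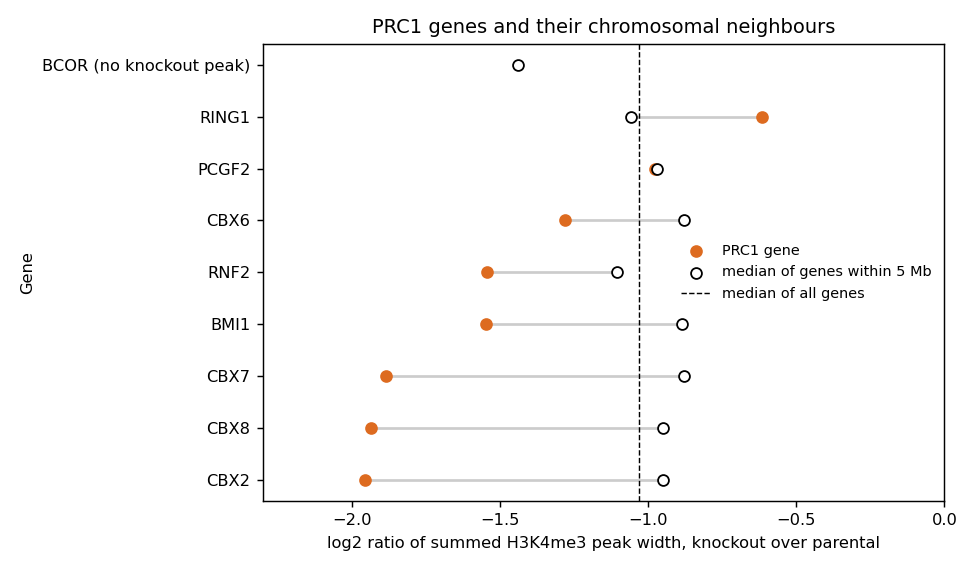
Filled points give the log2 ratio of summed H3K4me3 width, knockout over parental, of each PRC1 gene and open points the median of genes within 5 Mb; the dashed line is the median of all genes. CBX2, CBX7 and CBX8 lie about 1 log2 unit to the left of their neighbours, and RING1 lies to the right; BCOR has no knockout peak and so no filled point.

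A peak over the start site itself was listed for 3 members in parental cells, RNF2, CBX7 and BCOR, and for none in knockout cells. Over all genes listed in the genotype, 20.1% had such a peak in parental cells and 8.17% in knockout cells. At RING1, CBX2, CBX6 and the BCOR start at 39956719, parental peaks centred within 1 kb lay on both sides of an uncovered start. The members' peaks were centred within 1 kb of a start in 15 of 44 cases in parental cells and 9 of 24 in knockout cells. This was not counted over all peaks, so these shares are not shown to be particular to the members.

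H3K27me3 was listed at CBX7 alone among the 9 genes, in both genotypes. Over all symbols 18.2% had an H3K27me3 peak within 20 kb in either genotype. The parental peak of CBX7 was 503 bp wide, from 39549957 to 39550459, and the knockout peak 821 bp, from 39549570 to 39550390, a log2 ratio of 0.71 that is under 2-fold. Of the 3290 genes with the mark in either genotype, 39.9% were at least 2-fold narrower or unlisted in knockout cells and 38% were wider or newly listed by that measure. They shared 434 bp, which is 86.3% of the parental and 52.9% of the knockout peak. The direction was opposite to that of H3K4me3 at this gene (-1.88). The median log2 ratio over the 1399 genes with H3K27me3 in both genotypes was -0.14, and 72.3% of them had a lower one than CBX7. Only 757 of the 1399 had a negative ratio, against 12908 of 13433 genes for H3K4me3. A ratio above 0 for H3K27me3 is thus not particular to CBX7. With 1 library per mark and genotype the difference in direction between the marks at CBX7 was not tested. The CBX7 peak is narrow for the mark: 86.3% of genes with H3K27me3 in parental cells had more.

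On the H3K27me3 side of the CBX7 start each genotype also had 1 H3K4me3 peak, which did not touch the H3K27me3 peak. CBX7 is read on the minus strand, so these peaks lie upstream of its listed start, while its other H3K4me3 peaks lay over the start or downstream. In parental cells the H3K4me3 peak from 39548916 to 39549232 ended 724 bp before the H3K27me3 peak began, and in knockout cells the peak from 39549088 to 39549352 ended 217 bp before it. Of genes listed for H3K4me3, 3.61% in parental and 3.57% in knockout cells were also listed for H3K27me3, and 292 genes (1.61% of all symbols) had both marks in both genotypes.

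Around the other 8 members the nearest listed H3K27me3 peak was beyond 20 kb. CBX6 had one 27.358 kb away in parental and 27.611 kb away in knockout cells, listed for NPTXR, a neuronal pentraxin receptor gene. RNF2 had one 690.196 and 691.26 kb away at HMCN1, at the same place in both genotypes. RING1 had its nearest at 405.791 kb in parental cells and 194.651 kb in knockout cells, and PCGF2 at 898.522 and 154.441 kb. For CBX2 the nearest parental peak was 440.532 kb away, the same peak that was nearest to CBX8 at 421.593 kb, and in knockout cells none lay within 5 Mb of either gene. BMI1 and BCOR had none within 3 Mb in either genotype. Peaks farther than 20 kb from every start are not in the lists, so these distances are upper limits.

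The other PRC1 genes spread around the genome median. Of 21 further PRC1 genes, all listed for H3K4me3 in parental cells, 13 were at least 2-fold narrower or unlisted in knockout cells (61.9%, against 57.4% of all genes) and none was wider or newly listed by that measure, where 1.83% of all genes were. The 17 listed in both genotypes had a median log2 ratio of -1.0. The lowest ratios were those of E2F6, a repressive E2F factor, with 2607 and 184 bp (-3.82), KDM2B, which binds unmethylated CpGs, with 1917 and 313 bp (-2.61), PCGF6 (-1.75) and MGA (-1.65). All these 4 encode parts of variant complexes. PCGF5 (-0.27) and PCGF3 (-0.38), also of variant complexes, had the highest.

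Of these 21 genes 4 were listed in parental cells only, as were 12.5% of all genes listed in either genotype. They were SCMH1 (1634 bp), AUTS2 (798 bp), BCORL1 (310 bp) and SCML2 (230 bp). BCORL1, the paralogue of BCOR, and SCML2 lie on the X chromosome as BCOR does, and both had little width to begin with. Of the 21, only PCGF5 and AUTS2 had H3K27me3 within 20 kb, in both genotypes, where 18.2% of all symbols had it in either. PCGF5 had 6 parental peaks of 10820 bp and 1 knockout peak of 3362 bp (-1.69), and AUTS2 had 1478 and 615 bp (-1.26). At both genes H3K27me3 was thus narrower in knockout cells, as at 757 of the 1399 genes with the mark in both genotypes, while at CBX7 it was wider.

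The PRC2 genes encode the complex that writes H3K27me3. All 11 that appear in the lists had H3K4me3 in both genotypes. Of these, 8 (72.7%) were at least 2-fold narrower in knockout cells, where 57.4% of all genes were narrower or unlisted. The median log2 ratio of the 11 was -1.19. The lowest were JARID2 (3081 and 765 bp, -2.01), AEBP2 (-1.86), RBBP4 (-1.67) and the methyltransferase EZH2 (-1.35), and the highest were PHF19 (-0.67) and EED (-0.90). RBBP7, on the X chromosome, had peaks in both genotypes (1130 and 533 bp). No PRC2 gene had H3K27me3 within 20 kb, where 18.2% of all symbols did in either genotype. The medians of -1.55, -1.0 and -1.19 for the 3 lists are descriptions of single libraries, and no difference between them was tested.

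**Figure D5:**
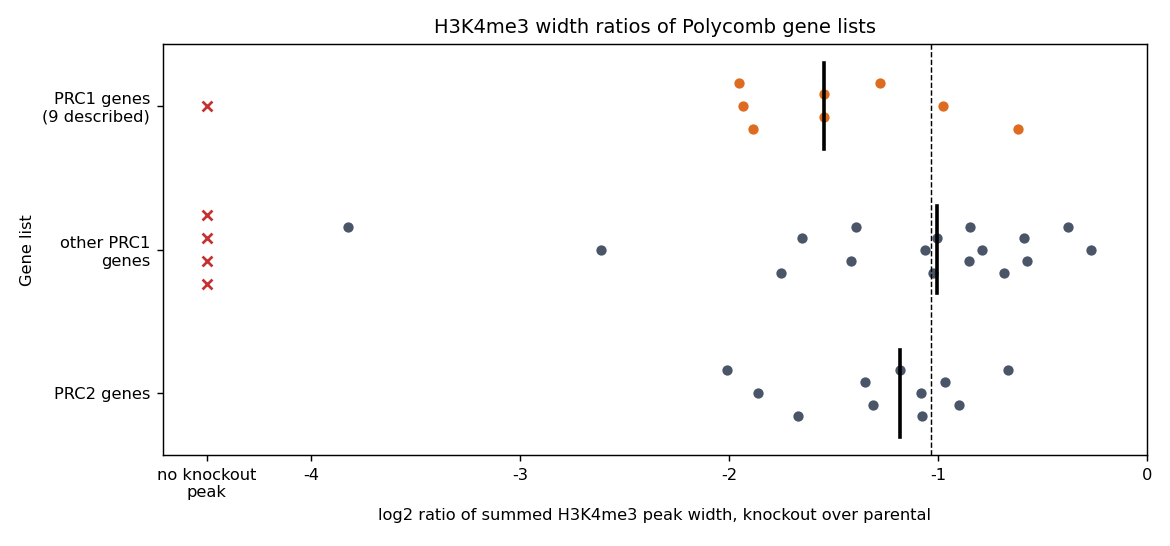
Points give each gene's log2 ratio of summed H3K4me3 width, knockout over parental, for the 9 PRC1 genes described, 21 other PRC1 genes and 11 PRC2 genes; bars are list medians, crosses are genes without a knockout peak and the dashed line is the median of all genes. The lists overlap over most of their range, and E2F6 at -3.82 lies farthest to the left.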

How the data were processed

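ChIP-seq for H3K4me3 and H3K27me3 was analysed in HL-60 cells with and without JMJD3, in 1 library each; 2 input libraries were not analysed here. Tools named in the submitters' processing notes are MACS2 2.1.1, BWA 0.7.10 and SAMtools, with build hg19; settings and controls for peak calling are not given in the sources used here. Per the file headers, each deposited line pairs a peak (start and end in bp) with a RefSeq transcript, a gene symbol, a distance and a score. On the values, the distance is peak centre minus TSS in the direction of the genome, under 20 kb, and the authors' deposited score follows from distance alone (checked on every line) and was not used. Starts were read as counted from 0 and are printed from 1. Depth is unknown.

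Distinct peaks, summed widths and log2 ratios per symbol were computed with pandas 2.3.3 and tested on simulated data. A gene counted as narrower at 2-fold or more, and shares have Wilson 95% intervals (scipy 1.17.1), which cover counting error only. No test or p-value exists with 1 library per group. Members and lists were chosen with earlier results of these data known. Named are all members, the genes sharing their peaks, and of both Polycomb lists the 4 lowest and 2 highest ratios, genes listed in 1 genotype only and genes with H3K27me3; RBBP7, IFITM3 and the genes at the nearest distant peaks were named after their values were seen. Promoters and strands come from RefSeq GRCh38.p14, matched by symbol; no hg19 exon annotation was used here. Alternatives were windows of 5 and 1 kb, peaks that span a TSS, nearest gene only, peaks of at least 300 bp, lists of equal length, and peaks closer than 500 bp joined.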

Additional observations from a re-analysis of the deposited data

How the results depend on the processing

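The count of 7 of 9 members at least 2-fold narrower or unlisted was 8 within 5 kb, 5 of 8 listed members within 1 kb, where BMI1 was unlisted, and 7 by nearest gene, for peaks of at least 300 bp, for lists of equal length and for joined peaks, where 56.3%, 55.9%, 56.9%, 71.3%, 48.8% and 54.3% of all genes were. The 7 were not the same genes throughout: by nearest gene RING1 took the place of BMI1, and with peaks of at least 300 bp PCGF2 did. With only peaks that span a TSS it was 3, of 3 members listed, where 79.5% of all genes were. The counts of other PRC1 and PRC2 genes were then 4 of 4 listed and 4 of 4 listed. The knockout share of peaks was 0, no member had H3K27me3 (likewise 0 within 1 kb), and no width ratio could be given. The median log2 ratio of members was -0.90 within 1 kb, above the -0.98 of all genes there, whereas within 20 kb it was below that of all genes. The count of 8 PRC2 genes, of 11 listed, was 5 within 1 kb and 5 for lists of equal length, beside 55.9% and 48.8% of all genes. The overlapped share at 50% coverage of the parental peak was 22.7%. PCGF2 had a log2 ratio of 0.0905 within 1 kb and by nearest gene. Of the other 40 ratios of single members under an alternative, 30 stayed within 1.5 times the reported ratio and 10 moved farther with the same sign: CBX8 ran from -3.19 (peaks of at least 300 bp) to -0.62 (5 and 1 kb), CBX6 reached -2.58, CBX2 -2.62 and RNF2 -0.12. Members without a ratio under an alternative are left out of these counts. Among them, CBX2 was listed in parental cells only within 5 kb, within 1 kb and by nearest gene, and RING1 by nearest gene. CBX7 was so for peaks of at least 300 bp, and RNF2 and CBX7 for peaks that span a TSS. BCOR was listed in parental cells only under every alternative run. No paired analysis was possible because each group has 1 library. Unknown depth limits every statement that a peak is unlisted.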
